A study of Mus musculus with 6 samples.

Results

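The TREM receptors and their signalling adaptors were examined in macrophages of the healing mouse infarct with and without integrin α5. The group comprised 7 genes, taken from the deposited count table by gene symbol: the receptors Trem1, Trem2, Trem3, Treml2 and Treml4 and the adaptors Tyrobp and Hcst. They were 7 of 54532 genes in the table and all 7 passed the expression filter, which kept 14522. Cells came from infarcted C57BL/6 hearts of 12-week-old mice, 7 days after permanent ligation of a coronary artery. Both groups carried the ITGA5 fl/fl alleles, and the 3 Myα5KO libraries also carried LyzM-Cre, which is active in myeloid cells at large and thus not restricted to macrophages, while the 3 ITGA5 fl/fl libraries, the controls, lacked it, so the Cre insertion and the loss of Itga5 cannot be told apart. Each heart was digested singly, and the cells were depleted of Ly6G+ cells and enriched for CD11b+ cells on magnetic columns, so other CD11b+ cells may be present. The main result was that Trem1 was lower in Myα5KO macrophages, at 58.9% of the ITGA5 fl/fl level, whereas none of the other 6 genes was called.

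TREM receptors are cell surface proteins of the immunoglobulin family. Most, such as TREM1 and TREM2, have short tails that cannot signal alone and pair in the membrane with small adaptors, whereas TREML1 and TREML2 lack this pairing. Of the adaptors, TYROBP, also named DAP12, carries an immunoreceptor tyrosine-based activation motif (ITAM) that recruits the kinase SYK, and HCST, also named DAP10, carries a motif that recruits phosphoinositide 3-kinase. TREM1 amplifies inflammatory responses of neutrophils and monocytes, and TREM2 senses lipids and apoptotic material and is typical of lipid-handling macrophages of damaged tissue.

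The 5 receptor genes form a cluster of 121380 bases on the plus strand of chromosome 17 (GRCm38, 48232768 to 48354147), and both adaptor genes lie on chromosome 7, tail to tail and 126 bases apart. The upstream sequences of Trem1 and Trem2 are shown, as the receptor that fell and the most abundant receptor of the same cluster. Each line gives the 250 bases before the RefSeq start, which for Trem1 lies before the start given in the count table (build GRCm38.p6, plus strand, 5′ to 3′), chr17:48232489-48232738 for Trem1 and chr17:48346151-48346400 for Trem2. Capitals mark matches, on either strand, to GAGGAA (the PU.1 core) or to TGANTCA. The latter is a loose AP-1-type pattern whose middle base is free, so a match is not by itself an AP-1 site.
Trem1: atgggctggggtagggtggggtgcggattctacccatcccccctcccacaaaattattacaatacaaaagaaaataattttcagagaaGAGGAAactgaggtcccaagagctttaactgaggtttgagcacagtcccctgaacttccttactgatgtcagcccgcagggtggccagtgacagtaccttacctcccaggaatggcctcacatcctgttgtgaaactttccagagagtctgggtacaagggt
Trem2: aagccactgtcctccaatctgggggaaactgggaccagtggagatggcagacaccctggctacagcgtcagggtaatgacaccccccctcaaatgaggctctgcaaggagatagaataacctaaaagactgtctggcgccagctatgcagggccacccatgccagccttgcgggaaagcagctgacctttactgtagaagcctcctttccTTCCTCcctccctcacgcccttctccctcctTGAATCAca
The Trem1 window held 1 match, to GAGGAA on the plus strand, starting 162 bases before the start. The Trem2 window held 2 matches, to GAGGAA on the minus strand (40 bases before the start) and to TGANTCA (9 bases before it), which did not overlap each other. The latter read TGAATCA, with A as the middle base. Of 32851 RefSeq promoters of the same length, 23.3% held GAGGAA and 6.75% TGANTCA, so these matches describe the letters of both windows only. A κB-type pattern, GGG and CC with 5 free bases between them, was searched as well and was in neither window, against 45.8% of the promoters. The promoter table matched 4 of the 7 genes.

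Total counts per library lay between 15424451 and 18419287, and every Myα5KO total exceeded every ITGA5 fl/fl total. As a check of the labels, Itga5 was lower in all Myα5KO libraries (log2 fold change -3.64, SE 0.08, adjusted p 4.42e-12 by edgeR). Lyz2, the gene that LyzM-Cre is inserted into, was lower as well (-0.92, SE 0.08, adjusted p 4.27e-05 by edgeR). The labelled cell type was checked with 12 macrophage markers, and all 12 were detected in every library, Csf1r at 2188 CPM (counts scaled to a common library size) in controls and 2153 CPM in Myα5KO. Ly6g, the antigen used for depletion, had 0 to 2 counts in a library. These are bulk samples, in which fewer cells of a type and less RNA per cell cannot be told apart. The labels number the libraries and the methods of the study describe individual hearts, so each library was taken as 1 heart.

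In order to compare the genes with each other, levels were expressed per gene length as deposited FPKM (fragments scaled to gene length and library size). Tyrobp was by far the highest, with FPKM values of 975, 951 and 905 in control replicates 1, 2 and 3, and 893, 893 and 979.8 in Myα5KO replicates 1, 2 and 3. By mean FPKM over the 6 libraries it ranked 33rd among the genes tested. Trem2 was the most abundant receptor, with 102, 93.6 and 110.2 FPKM in controls and 89.8, 102 and 109.8 FPKM in Myα5KO. Trem1 followed with 29.1, 37.6 and 37.0 FPKM in controls and 22.4, 22.4 and 16.1 FPKM in Myα5KO. Mean FPKM over the 6 libraries was 933 for Tyrobp, 101 for Trem2, 27.4 for Trem1, 10.6 for Hcst, 4.39 for Treml4, 2.93 for Treml2 and 2.65 for Trem3. This order held in all 6 libraries. The values of neighbours in the order overlapped across libraries only for Treml2 and Trem3, although Treml2 was above Trem3 within each library. Tyrobp exceeded Trem2 by 9.22-fold and Trem2 exceeded Trem1 by 3.69-fold in mean FPKM.

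**Figure D1:**
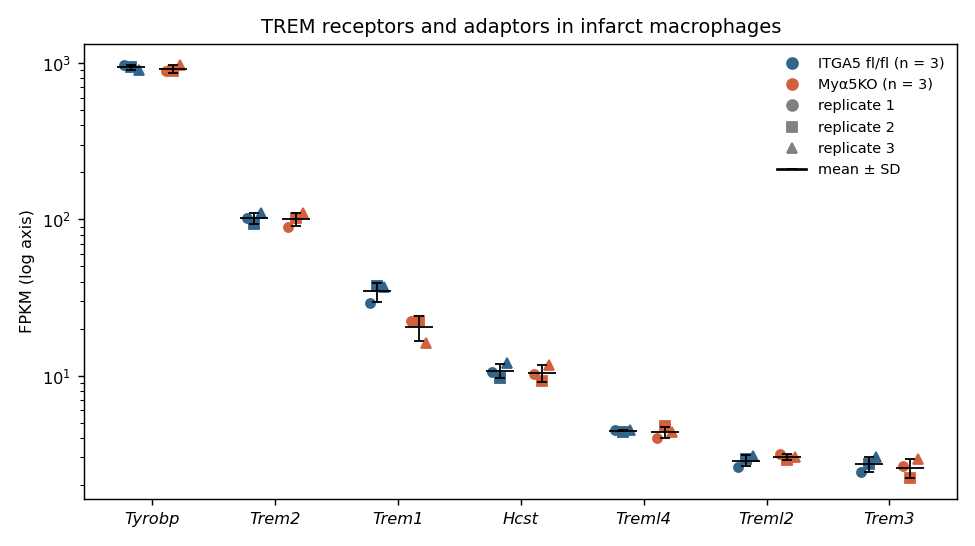
FPKM (log axis) of each gene in each library, with ITGA5 fl/fl in blue and Myα5KO in orange, symbols for replicates 1 to 3 and bars for mean ± SD (n = 3 each). Levels run from Tyrobp (mean 933 FPKM) to Trem3 (2.65 FPKM), and Trem1 alone has all Myα5KO libraries below all ITGA5 fl/fl libraries.

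Trem1 (ENSMUSG00000042265, chromosome 17, 48232768 to 48246924, protein coding) encodes the receptor that amplifies inflammatory signals. It had 87.3, 114 and 111 CPM in control replicates 1, 2 and 3, and 67.4, 67.4 and 49.1 CPM in Myα5KO replicates 1, 2 and 3. All Myα5KO values lay below all ITGA5 fl/fl values, with control replicate 1 the lowest control and Myα5KO replicate 3 the lowest of all. Mean expression was 104 ± 14.5 CPM in controls and 61.3 ± 10.6 CPM in Myα5KO (n = 3 each, SD). The log2 fold change was -0.76 (SE 0.12, 95% interval -1.02 to -0.51, edgeR quasi-likelihood adjusted p 0.00197), which places Myα5KO between 49.2% and 70.4% of control. It was 1 of 7 genes called at an adjusted p of 0.05 or less, against 8.75% of all genes tested. In the lower direction it was 1 of 7, against 5.19%, and in the higher direction edgeR called 0 of 7, against 3.56%, with 0 at an unadjusted p under 0.05 and 0 by DESeq2. Trem1 was also the 1 gene of the 7 whose groups did not overlap, beside 28.6% of all genes tested in either direction and 13.8% with Myα5KO lower.

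The call of Trem1 held in every fit that left out a library, with log2 fold changes from -0.88 (without control replicate 1) to -0.63 (without Myα5KO replicate 3). Its adjusted p ranged over the alternatives from 1.21e-19 (no count filter) to 0.0493 (limma on log2(FPKM + 0.1)). The exception was the edgeR test for changes beyond 1.5-fold, where its adjusted p was 1. With no count filter the SE was 0.078 for Trem1, 0.074 for Trem2 and 0.074 for Tyrobp, against 0.12, 0.087 and 0.071 in the main fit. That smallest p may therefore say little about the spread of Trem1 itself. The processed pseudogene AC241601.2 lies within Trem1 on the opposite strand. It shares 0 exonic bases with it and held 21 to 50 counts in a library, against 933 to 1951 for Trem1, and it was not called (log2 fold change -0.59, SE 0.28, adjusted p 0.227 by edgeR). No word of 50 bases in the annotated transcripts of any of the 7 genes occurred in another of them, in Treml1, in B430306N03Rik or in this pseudogene.

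Trem2 (ENSMUSG00000023992, chromosome 17, 48346401 to 48354147, protein coding) encodes the lipid-sensing receptor. It had 506, 467 and 546 CPM in controls and 445, 504 and 553 CPM in Myα5KO replicates 1 to 3. The lowest and the highest value were both from Myα5KO, so the groups overlapped over the whole control range. Means were 507 ± 39.7 and 501 ± 53.8 CPM (n = 3, SD), and the log2 fold change was -0.02 (SE 0.09, adjusted p 0.936 by edgeR). The 95% interval placed Trem2 in Myα5KO between 86.8% and 113% of control.

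The remaining receptors were scarce. Treml4, a receptor of non-classical monocytes and some dendritic cells (ENSMUSG00000051682, chromosome 17, 48264295 to 48275360), had 8.98, 8.81 and 8.93 CPM in controls and 7.99, 9.47 and 8.78 CPM in Myα5KO. The control values lay within the range of the Myα5KO values (log2 fold change -0.03, SE 0.12, adjusted p 0.923 by edgeR). Treml2, a receptor also found on lymphocytes (ENSMUSG00000071068, chromosome 17, 48299498 to 48312533), had 12.8, 14.4 and 15.02 CPM in controls and 15.4, 14.2 and 15.04 CPM in Myα5KO. Its groups overlapped, and 1 control library, replicate 1, was the lowest (log2 fold change 0.08, SE 0.10, adjusted p 0.693 by edgeR). Trem3, the paralog next to Trem1 at 852 bases from its end (ENSMUSG00000041754, chromosome 17, 48247777 to 48258841), had 36, 46 and 53 counts in controls and 49, 41 and 56 counts in Myα5KO. In CPM its groups overlapped (2.71 ± 0.302 and 2.58 ± 0.376, SD, n = 3 each), and its interval was the widest of the 7, from 69.3% to 130% of control (adjusted p 0.873 by edgeR). A change of Trem3 of the size seen for Trem1 lies outside this interval, whose lower bound is -0.53 on the log2 scale.

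Neither adaptor was called. Tyrobp (ENSMUSG00000030579, chromosome 7, 30413760 to 30417585, plus strand) had 652, 639 and 605 CPM in controls and 597, 598 and 665 CPM in Myα5KO. The highest value and the 2 lowest values came from Myα5KO. The log2 fold change was -0.03 (SE 0.07, adjusted p 0.856 by edgeR), and the 95% interval of 88.2% to 109% of control was the narrowest of the 7. Hcst (ENSMUSG00000064109, chromosome 7, 30417712 to 30419854, minus strand) had 7.64, 7.05 and 8.65 CPM in controls and 7.40, 6.69 and 8.62 CPM in Myα5KO. Its groups overlapped (log2 fold change -0.04, SE 0.14, interval 78.7% to 120% of control, adjusted p 0.900 by edgeR).

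**Figure D2:**
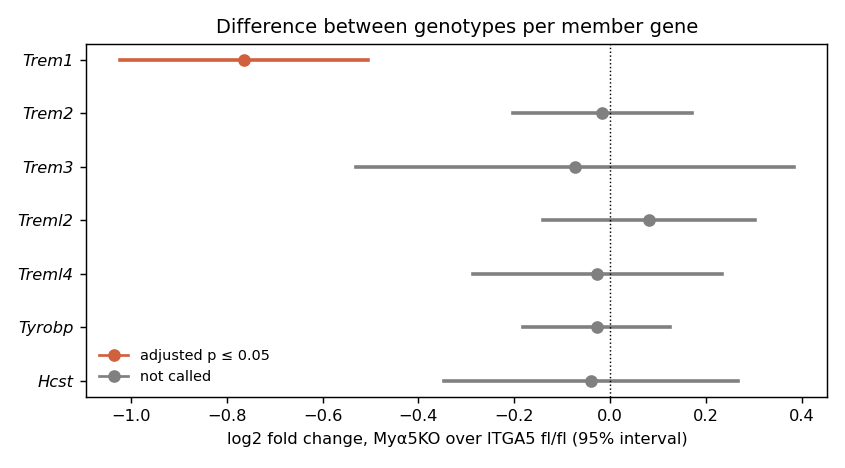
Log2 fold change of Myα5KO over ITGA5 fl/fl with its 95% interval for each gene from the edgeR fit (n = 3 libraries each), with called genes in orange. The Trem1 interval ends at -0.51, and the intervals of the other 6 genes include 0.

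The balance between genes was examined within each library. Trem1 made up 23.6 ± 2.99% of the summed FPKM of the 5 receptors in controls and 15.7 ± 3.42% in Myα5KO macrophages (SD, n = 3 each). Trem2 made up 69.6 ± 3.15% and 76.7 ± 3.59%. The FPKM ratio of Trem2 to Trem1 was 3.51, 2.49 and 2.98 in controls and 4.001, 4.54 and 6.82 in Myα5KO replicates 1 to 3. All Myα5KO ratios were higher, by 0.75 on the log2 scale (exact two-sided permutation test p 0.1, the smallest this design allows, adjusted p 0.3 over 3 ratios). With a Trem2 log2 fold change of -0.02, this ratio and the shares largely restate the fall of Trem1 and are not a separate result. The FPKM ratio of Tyrobp to Hcst averaged 88.7 ± 11.6 in controls and 89.2 ± 6.82 in Myα5KO (SD, n = 3 each, exact permutation p 1). Fcer1g encodes the other ITAM adaptor common in myeloid cells. The FPKM ratio of Tyrobp to Fcer1g averaged 1.36 ± 0.101 and 1.37 ± 0.0751 (SD, n = 3 each, exact permutation p 1). Fcer1g itself was not called (611 ± 25.6 and 597 ± 62.2 CPM, SD, n = 3 each, log2 fold change -0.03, adjusted p 0.840 by edgeR).

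Neighbouring genes were examined along the same cluster. Treml1, a receptor of platelets, lies downstream of Trem2 and had 35, 20 and 36 counts in controls and 13, 26 and 27 counts in Myα5KO. Its groups overlapped (log2 fold change -0.66, SE 0.34, adjusted p 0.276 by edgeR). B430306N03Rik, between Treml2 and Trem2, had a log2 fold change of 0.06 (SE 0.11, adjusted p 0.809 by edgeR). Nfya, a subunit of a CCAAT-binding factor, had -0.03 (SE 0.06, adjusted p 0.795 by edgeR), and Oard1, a hydrolase of ADP-ribose derivatives, 0.26 (SE 0.12, adjusted p 0.209 by edgeR). Of 6 cluster genes on the list, 3 were tested and 0 were called by edgeR, against 8.75% of all genes tested. Of the 3, 1 had an unadjusted p under 0.05, and DESeq2 and limma-voom called 0. Apobec2, Unc5cl and Tspo2 were below the filter, with 0 to 8 counts in a library. Next to Hcst, Nfkbid, which encodes an atypical inhibitor of NF-κB, had a log2 fold change of 0.13 (SE 0.09, adjusted p 0.446 by edgeR). Aplp1, beyond Nfkbid, had -0.13 (SE 0.19, adjusted p 0.753 by edgeR). Farther off on the Tyrobp side, Sdhaf1, an assembly factor of respiratory complex II, had -0.62 (SE 0.34, adjusted p 0.290 by edgeR). Lrfn3, also at a distance on the Tyrobp side, was not tested, with 2 to 9 counts in a library.

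**Figure D3:**
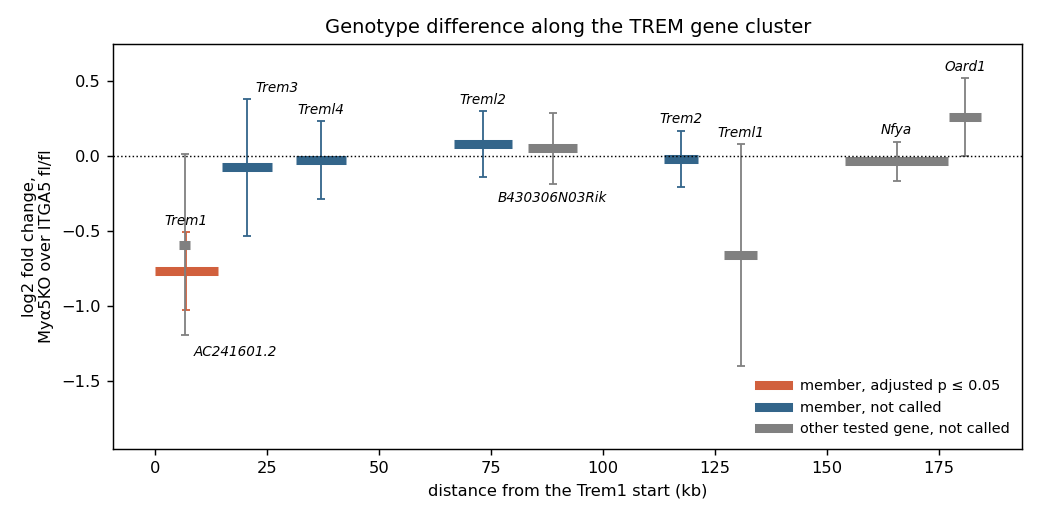
Log2 fold change (y axis, with 95% interval) against distance from the Trem1 start in kb (x axis) for the tested genes of the cluster. Thick bars span each gene, orange for the called member, blue for members that were not called and grey for other genes, and Trem1 is the 1 gene whose bar is orange.

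Genes on both sides of the TREM receptors were then described, from ligand to kinase. In the list of other receptors that use TYROBP or HCST, 15 of 17 genes were tested, of which 3 were higher and 0 lower in Myα5KO macrophages, against 3.56% and 5.19% of all genes tested, with a median log2 fold change of 0.17 against 0.01 over all genes tested. Clec5a, a C-type lectin receptor of monocytes and macrophages, had 47.3, 43.7 and 40.9 CPM in controls and 52.8, 59.9 and 56.3 CPM in Myα5KO, with no overlap (log2 fold change 0.36, SE 0.08, adjusted p 0.0114 by edgeR). It was not called without control replicate 3 (0.31) or Myα5KO replicate 2 (0.31). Klrd1, the CD94 chain of natural killer cell receptors, had 4.22, 4.99 and 4.55 CPM against 6.23, 7.22 and 8.36 CPM (log2 fold change 0.66, SE 0.16, adjusted p 0.0198 by edgeR). Klrd1 lost its call without control replicate 1 (0.61) or 3 (0.65) and without Myα5KO replicate 2 (0.66) or 3 (0.55). Summed markers of T and NK cells were also higher in every Myα5KO library, at 31.2 to 39.1 CPM against 23.1 to 29.9 CPM. Of these markers 9 were tested and 0 were called by edgeR, against 8.75% of all genes tested. The part of T and NK cells in this result was not tested. Sirpb1a rose by 0.36 (SE 0.10, adjusted p 0.0447 by edgeR) but kept its call only without control replicate 1 among the 6 fits with a library left out, and DESeq2 did not call it. The other 5 gave 0.25 (control replicate 3), 0.41 (control replicate 2) and 0.38, 0.34 and 0.36 (Myα5KO replicates 1, 2 and 3). Of the words of 50 bases in Sirpb1a transcripts, 33.8% also occurred in Sirpb1b and 37.3% in Sirpb1c, and since the handling of multi-mapped reads is not known, its count may be uncertain. Over the 6 fits with a library left out, 0 to 2 genes of this list were called, 0 of them without control replicate 3 or Myα5KO replicate 2. The uncalled members of the list ran from -0.32 (Klra8) to 1.04 (Klrc2), and the more abundant of them, Cd300c2 and Cd300lb, had 232 and 111 CPM in controls and 241 and 103 CPM in Myα5KO.

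Among ligands and partners of the receptors, 15 of 16 genes were tested, 1 was higher and 0 were lower, against 3.56% and 5.19% of all genes tested (median log2 fold change -0.00076). Pglyrp1, Hmgb1 and Cirbp, whose products can bind TREM1, had log2 fold changes of 0.29, 0.05 and -0.18 with edgeR adjusted p of 0.563, 0.729 and 0.387. Apoe, a TREM2 ligand, had 26199, 23428 and 25432 CPM in controls and 21662, 17453 and 22207 CPM in Myα5KO. Its groups did not overlap, and it was not called by edgeR (log2 fold change -0.29, SE 0.10, adjusted p 0.104 by edgeR). DESeq2 called it lower (-0.30, adjusted p 0.0112 by DESeq2), as did edgeR with no count filter (-0.28) and without Myα5KO replicate 3 (-0.35). The called gene was Ms4a4a, a membrane protein of macrophages linked to soluble TREM2, with 83.1 ± 11.8 CPM against 104 ± 5.24 CPM (SD, n = 3 each, log2 fold change 0.32, adjusted p 0.0421 by edgeR). It lost its call without control replicate 1 (0.25) or 2 (0.26) or Myα5KO replicate 2 (0.31) or 3 (0.28). Of 7 proteases that shed or cleave TREM receptors, 0 were called by edgeR, against 8.75% of all genes tested. At an unadjusted p under 0.05 there were 0, and DESeq2 called 0. In other edgeR fits 1 protease was called without Myα5KO replicate 1 and 1 with no count filter. Adam10 and Adam17, the main sheddases of TREM2, had log2 fold changes of 0.09 and 0.04.

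ITAM signal transducers act inside the cell behind TYROBP. Of 24 tested genes, 4 were lower, against 5.19% of all genes tested, with a median log2 fold change of -0.06. Syk, the kinase recruited by the ITAM, had 948, 859 and 876 CPM in controls and 688, 675 and 614 CPM in Myα5KO replicates 1 to 3. The groups were widely separated, and the log2 fold change was -0.44 (SE 0.07, adjusted p 0.00291 by edgeR). Src, a kinase that phosphorylates ITAMs, had 37.7, 33.1 and 32.5 CPM against 24.2, 23.5 and 23.0 CPM, without overlap (log2 fold change -0.55, SE 0.08, adjusted p 0.00181 by edgeR). Malt1, a paracaspase that links SYK signals to NF-κB, fell by 0.36 on the log2 scale (SE 0.07, adjusted p 0.00669 by edgeR). Syk, Src and Malt1 kept their calls in each fit that left out a library. Fyn, another SRC family kinase, fell by 0.27 (SE 0.07, adjusted p 0.0261 by edgeR) and was not called without control replicate 1 (-0.23) or 2 (-0.28) or Myα5KO replicate 1 (-0.25) or 3 (-0.26).

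Of 9 inhibitors of ITAM signalling, 2 were higher and 0 lower, against 3.56% and 5.19% of all genes tested, with a median log2 fold change of -0.03. The count was 3 without control replicate 2 or Myα5KO replicate 1 and 1 without control replicate 3. Ptpn6, which encodes the phosphatase SHP-1, had 189, 168 and 174 CPM in controls and 250.045, 261 and 257 CPM in Myα5KO. All Myα5KO libraries were higher, with a log2 fold change of 0.53 (SE 0.07, adjusted p 0.00043 by edgeR), and the call held in each fit that left out a library. Dok3, an adaptor that restrains TYROBP signalling, had 82.8, 78.0 and 75.6 CPM against 90.3, 98.7 and 109 CPM. It rose by 0.33 (SE 0.08, adjusted p 0.0158 by edgeR), and was not called without control replicate 2 (0.33) or 3 (0.30). Inpp5d, the lipid phosphatase SHIP1, had a log2 fold change of -0.21 with an edgeR adjusted p of 0.109, and Cblb, a ubiquitin ligase for activated kinases, -0.28 with 0.0801.

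**Figure D4:**
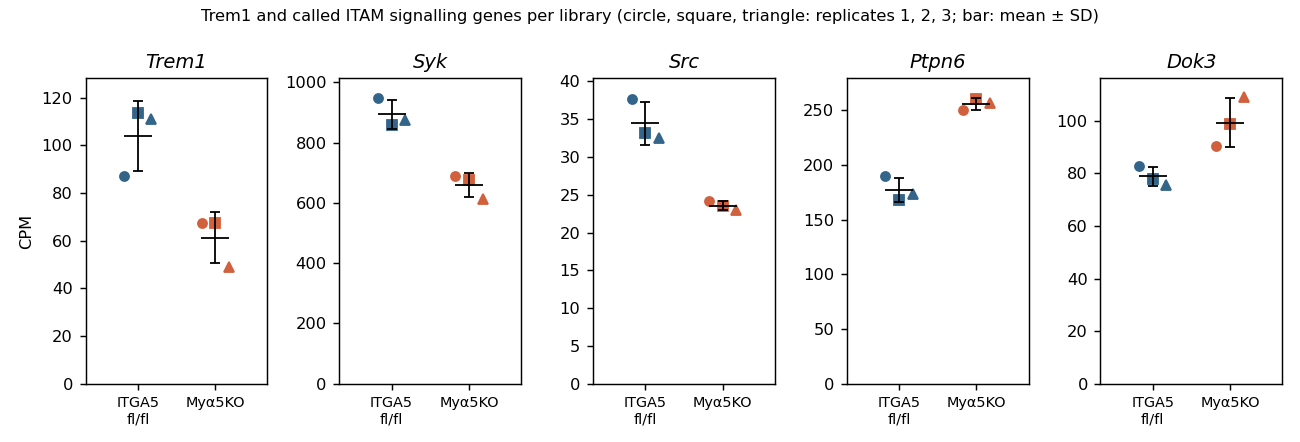
CPM of Trem1 and of 4 called ITAM signalling genes in each library (symbols for replicates 1 to 3, bars for mean ± SD, n = 3 each, every axis from 0). Trem1, Syk and Src are lower and Ptpn6 and Dok3 higher in Myα5KO, with no overlap between groups in any panel.

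Genes that depend on TREM2 in lipid-associated macrophages were considered last. Of 20 tested, 0 were called by edgeR, against 8.75% of all genes tested. Of the 20, 4 had an unadjusted p under 0.05, and DESeq2 called 1, Apoe, and limma-voom 0. edgeR called 1 gene without control replicate 3 and 1 without Myα5KO replicate 3. It called 3 with no count filter and 1 with scaling by library totals. The median log2 fold change was -0.0011, within a range of -0.29 (Apoe) to 0.33 (Lpl). Spp1, Gpnmb and Fabp5, leading genes of this programme, had log2 fold changes of 0.10, -0.15 and -0.0015 with edgeR adjusted p of 0.711, 0.409 and 0.995.

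**Figure D5:**
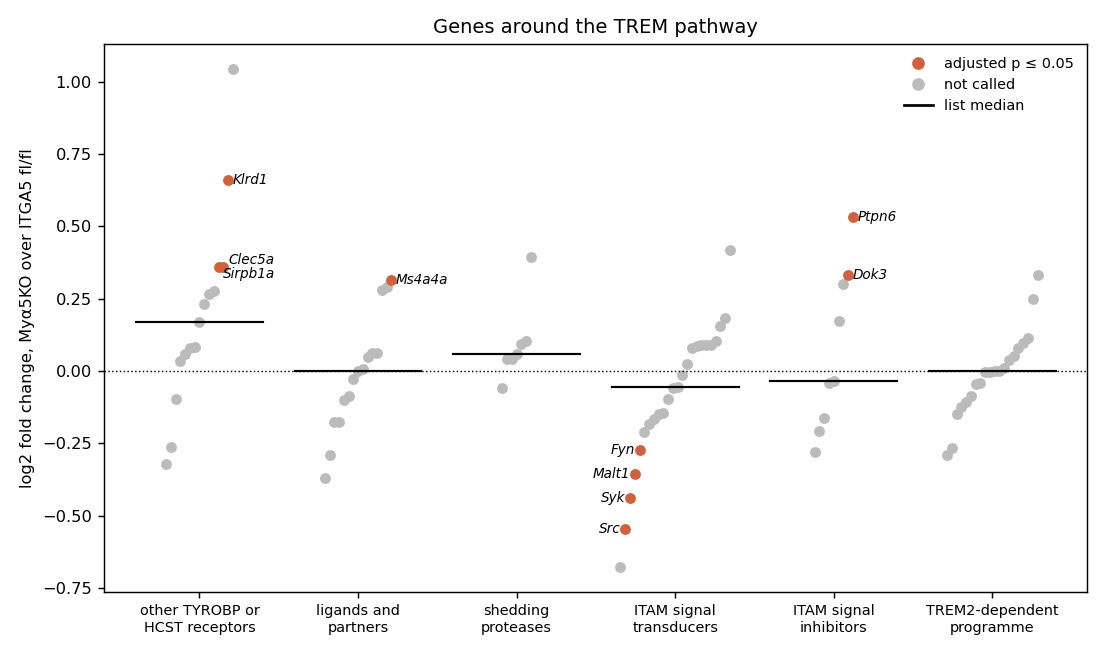
Log2 fold change of the tested genes reported in 6 lists of the TREM pathway, with called genes in orange and named, other genes in grey and the list median as a black line. The transducers hold 4 of the orange points, all below 0, the inhibitors 2 above, and the TREM2-dependent programme 0.

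The genes whose pattern over the 6 libraries was closest to Trem1 were found by the root mean square distance of log2 CPM, each gene centred on its own mean, among 8300 other genes with a mean of at least 10 CPM. They were the predicted gene Gm37084 (distance 0.0852), Ehd1, a regulator of endocytic recycling (0.110), and Olr1, a receptor of oxidised lipoproteins (0.113), against a median distance of 0.444. Ehd1 had 558, 607 and 662 CPM in controls and 392, 389 and 333 CPM in Myα5KO. Olr1 had 118, 131 and 127 CPM against 73.0, 79.0 and 51.8 CPM. Both were picked for closeness to Trem1 over these 6 libraries, so sharing its direction and its lowest library, Myα5KO replicate 3, follows from that choice.

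Markers of several cell types were set beside the Trem1 result. Of 12 neutrophil markers 10 were tested and 7 were higher in Myα5KO, against 3.56% of all genes tested. On the FPKM scale limma called 1 of them with a pseudocount of 1 and 0 with 0.1, with 8 at an unadjusted p under 0.05 in both, and edgeR called 5 to 8 with a library left out. The 10 tested had log2 fold changes from -0.65 to 2.05 with a median of 1.46, of which 9 were positive and 1 negative. The summed level of the 12 markers was 192 to 235 CPM in controls and 262 to 387 CPM in Myα5KO, the opposite direction to Trem1. Of 9 monocyte markers, which include Treml4, 3 were higher (Ccr2, Ly6c2 and Spn) and 1, Fn1, was lower. Over all genes tested, 3.56% were called higher and 5.19% lower. The sum of the monocyte markers overlapped between groups, at 2832 to 4512 CPM and 2167 to 2993 CPM, of which Fn1 held most. Of 12 macrophage markers, 1 was lower (Cd14) and 1 higher (Fcgr1), against 5.19% and 3.56% of all genes tested. Of the 12, 10 had a negative log2 fold change. The macrophage count called was 1 without control replicate 2 or 3 or Myα5KO replicate 2, and 1 by limma with either FPKM pseudocount. The macrophage sum was 19000 to 19245 CPM in controls and 16977 to 17888 CPM in Myα5KO. Dendritic cell markers summed to 351 to 401 CPM in controls and 416 to 441 CPM in Myα5KO (1 of 8 called, higher). B cell markers summed to 76.0 to 120 CPM and 118 to 192 CPM (2 of 7 called, higher). Both counts stand beside 3.56% of all genes tested. The dendritic cell count was 0 without control replicate 3 or Myα5KO replicate 2 or 3 and 2 without control replicate 1 or Myα5KO replicate 1. The B cell count was 0 without control replicate 1 or 2 or Myα5KO replicate 1 or 3 and 5 without Myα5KO replicate 2. Of the 9 tested T and NK cell markers 0 were called by edgeR, against 8.75% of all genes tested, and 4 had an unadjusted p under 0.05. DESeq2 called 0 of them, and edgeR called 1 without control replicate 3 and 2 with no count filter. Their log2 fold changes lay between 0.05 and 0.90. Cardiomyocyte and fibroblast sums were lower in every Myα5KO library (12.6 to 16.7 against 19.1 to 21.6 CPM, and 1209 to 1578 against 1618 to 1897 CPM). Of these markers 2 of 6 tested and 1 of 7 were called lower, against 5.19% of all genes tested. Endothelial sums overlapped, with 1 of 6 called higher, against 3.56%. The cardiomyocyte count was 1 without control replicate 1 or 3 or Myα5KO replicate 2, the fibroblast count 0 without control replicate 1 or 3 or Myα5KO replicate 3 and 4 without Myα5KO replicate 1, and the endothelial count 0 without any 1 of the 6 libraries. For each sum without overlap the exact two-sided permutation p was 0.1, the smallest possible, and 0.15 after adjustment over 9 lists. The part of these cells in the Trem1 result was not tested.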

How the data were processed

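Per the labels and the methods of the study, polyadenylated RNA of Ly6G-CD11b+ cells was sequenced as paired-end reads, and groups and replicate numbers were read from the sample titles, with ITGA5 fl/fl as control. The authors filtered the reads, aligned them to GRCm38 (mm10) with TopHat2 2.0.9 and counted reads per gene with HTSeq 0.6.1. The deposited counts are raw whole numbers. The deposited FPKM values are these counts divided by gene length and a constant per library. Handling of strand and of multi-mapped reads is not given in the sources used here.

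Counts of all genes were fitted with edgeR 4.0.16 (quasi-likelihood; R 4.3.3, TMM, default filter with minimum count 10 and minimum total 15, no covariate), and p-values were adjusted by the Benjamini-Hochberg method over the 14522 genes tested. Called means an adjusted p of 0.05 or less. Fold changes are given as Myα5KO relative to control. CPM use the TMM factors. The methods of the study name DESeq2, so DESeq2 1.42.0 was an alternative, beside limma 3.58.1 (voom, and trend on log2 FPKM where 3 libraries reached an FPKM of 1), other scalings and filters, the replicate number as a block, a test against 1.5-fold and each library left out. Ratios were tested by exact two-sided permutation. The edgeR, DESeq2 and voom fits were tested on simulated data, with the outcome not reported here. Intervals and p-values of the edgeR, DESeq2 and limma fits rest on the spread between libraries of a group. In these fits the variance of each gene is drawn in part from other genes. Permutation p-values come from relabelling the libraries. All of them refer to these 6 libraries only.

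The 7 genes are those of given symbols, but this set, the pathway lists and the motifs were chosen with earlier results of these data known. Named are the 7 genes, their neighbours, up to 4 called genes of each list and the 3 genes closest to each called member. Other genes were named after their values were seen. Promoter sequences are from RefSeq (GRCm38.p6), and gene overlaps from GENCODE M21, whose coordinates of the 7 genes equal the deposited ones. Other data types of the study were not used here. 1 gene each of the transducer and monocyte lists is not reported here and is left out of the counts, medians and sums of these lists.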

Additional observations from a re-analysis of the deposited data

How the results depend on the processing

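Trem1 kept its direction and its call in 16 of 17 alternatives. When changes beyond 1.5-fold were required, 0 of the 7 genes were called by edgeR, with 1 at an unadjusted p under 0.05, and 15 of all genes. That test asks for evidence that a change exceeds 1.5-fold. The Trem1 estimate in it was unchanged at -0.76 on the log2 scale, with an unadjusted edgeR p of 0.0236. On the FPKM scale 472 genes were called with a pseudocount of 1 and 448 with 0.1, and 1 of the 7 in both. The cause was not tested. The FPKM scale ended the calls of Clec5a, Sirpb1a, Ms4a4a, Fyn and Dok3, median-ratio scaling and a filter of 10 counts in every library those of Sirpb1a and Ms4a4a, and library totals that of Fyn. Library totals called 1212 genes higher and 518 lower, against 517 and 754 with TMM, and the fit with no count filter called 1738. Fits with a library left out called 616 (without control replicate 3) to 1091 genes, and 1 of the 7 in each.

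Scaling by library totals moved the median log2 fold change of all genes from 0.01 to 0.095, a shift that by itself turns the sign of values just below 0, among them Trem2 (0.065), Trem3 (0.0079), Treml4 (0.054), Tyrobp (0.053), Hcst (0.041) and Fcer1g (0.046). With a library left out, log2 fold changes ranged from -0.093 to 0.057 for Trem2, -0.18 to 0.028 for Trem3, -0.091 to 0.030 for Treml4, -0.14 to 0.045 for Hcst and -0.12 to 0.029 for Fcer1g, none called. The log2 FPKM ratios moved from -0.10 to 0.090 for Tyrobp to Hcst, -0.054 to 0.044 for Tyrobp to Fcer1g and 0.52 to 0.91 for Trem2 to Trem1.

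The groups share replicate numbers, but the deviations of same-numbered libraries correlated at 0.05, -0.06 and 0.04, and not every library correlated best with its own number, so the numbers were not taken as pairs. With the replicate block 1181 genes were called, and 1 of the 7 (Trem1, -0.77, edgeR adjusted p 0.00495). The block ended the call of Sirpb1a (edgeR adjusted p 0.0508) and called 3 inhibitors and 1 gene of the TREM2-dependent programme.

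Depth limits Trem3, Treml1 and Sdhaf1, which had fewer than 60 counts in each library. With 3 libraries a group, no exact test of a single value can go below 0.1.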
